A study of Mus musculus with 9 samples.

Results

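The module described here holds 40 genes of the ATF4 response, serine and folate metabolism, amino acid synthesis and transport, and tRNA charging. They were drawn as a named list from the 56748 genes of the count table, and not each is a target of ATF4. The choice was made with earlier results of these data known, so the shares called below are not independent of these data. The list comprised 10 regulators and effectors of the response and 9 enzymes of serine and folate metabolism. It also held 3 enzymes of asparagine and proline synthesis, 5 amino acid transporters and 13 cytosolic aminoacyl-tRNA synthetases. All 40 were found, 28 by the symbol used here and 12 synthetases that the table lists under older symbols (Aars for Aars1, for example) by their Ensembl identifier. All 40 passed the filter on low counts, with 111 to 8500 counts in any single library.

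ATF4 is a transcription factor whose mRNA is translated preferentially when the initiation factor eIF2 is phosphorylated by stress kinases such as PERK and GCN2, and it then raises genes for amino acid uptake, synthesis and tRNA charging. The serine arm feeds carbon from glycolysis through serine into folate, which carries single carbon units for nucleotide synthesis and methylation. In bone-forming cells ATF4 is known as a factor of osteoblast maturation and of the amino acid supply for collagen synthesis.

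The RNA came from MLO-Y4, an immortalised osteocyte-like mouse line that represents a single clone, kept in transwell co-culture with primary articular chondrocytes of C57BL/6J mice aged 5 to 6 days. All groups shared this co-culture, which lets soluble factors pass through a porous insert. In the control group (n = 3 libraries) the chondrocytes were not stimulated, and in the 24 h and 48 h groups (n = 3 libraries each) they had received 10 ng/mL interleukin-1β for 6 h before co-culture of 24 h or 48 h. The labels give no co-culture time for the control, so stimulation and time in culture cannot be told apart in a difference from control. They also write the line of the 48 h libraries as MLO-Y5, MLO-Y6 and MLO-Y7, whereas the protocols name MLO-Y4 alone. Nothing states that the libraries of a group came from separate cultures, and p-values then measure the spread between libraries, which may be technical.

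Library totals ran from 12250628 to 18515456 counts, and the 48 h libraries were the deepest group. The osteocyte markers Mepe and Fgf23 were at 0 counts in every library, Sost reached at most 1 count and Dmp1 at most 6, whereas Phex, Pdpn and Gja1 were well detected. Among chondrocyte markers, Acan, Col9a1, Col9a2, Matn1, Cnmd and Ucma were at 0 counts and Col2a1 at most at 7, and 6 of 17 passed the filter. Of these 6, Sox9 was at 100.3 to 126.2 CPM over the libraries. By the test described below, 4 of the 6 were higher and 1 was lower at 48 h than in the control (Sox9, Col11a1, Comp and Prg4 higher, Matn3 lower). Over all genes tested, 22.0% were higher and 24.4% lower. The summed level of the chondrocyte markers was 1684 to 1719 CPM in the control, 1568 to 1651 CPM at 24 h and 2132 to 2221 CPM at 48 h, most of it from Prg4, and its part in the results below was not tested. The leukocyte markers Adgre1, Itgam and Tyrobp were at 0 counts, and Ptprc reached at most 1 count, while 2 of 8 passed the filter. The summed level of the 8 was 5.19 to 7.93 CPM in the control, 3.94 to 5.60 CPM at 24 h and 6.34 to 7.73 CPM at 48 h. By the test described below, 1 of the 2 that passed the filter was lower at 24 h than in the control, against 2.90% of all genes tested. At 48 h versus 24 h, 1 of the 2 was higher, against 23.7%.

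Levels are given in CPM, the usual scaling of a count by its library total, here with totals adjusted by TMM factors. A gene was called when the edgeR quasi-likelihood test gave a Benjamini-Hochberg adjusted p below 0.05 over all 13812 genes tested, and every adjusted p below comes from that fit. The log2FC is the fitted log2 fold change, given ± its SE, and a mean level is given ± the SD over 3 libraries. In bulk RNA, fewer cells that express a gene and less of its RNA per cell cannot be told apart.

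Sequence windows are shown first, because a shared element was searched in the promoters of these genes. Binding of ATF4 with C/EBP partners to the C/EBP-ATF response element is a textbook feature of its targets. The element was searched as TGATGNAA on both strands of the RefSeq promoter windows, which run from 250 bases before to 50 bases after a gene start and come from a table for GRCm38. Windows were found for 31 of the 40 genes (35 windows), and 10 of these 35 windows (28.6%) held a match, against 1304 of 32851 windows of all genes (3.97%). The genes were listed for their part in this pathway, of which the element is a known feature. The difference between the shares is therefore not independent evidence. Windows of 9 genes with a match are printed in the direction of the gene, 30 bases each, placed on GRCm39 by a unique exact match of the whole promoter window, with the 8 matching bases in capitals.
Chac1 chr2:119181519-119181548 (+): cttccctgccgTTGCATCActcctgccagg
Trib3 chr2:152185948-152185977 (-): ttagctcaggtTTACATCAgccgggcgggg
Asns chr6:7693214-7693243 (-): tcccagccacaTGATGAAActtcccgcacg
Pycr1 chr11:120534659-120534688 (-): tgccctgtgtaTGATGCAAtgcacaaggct
Slc1a4 chr11:20282699-20282728 (-): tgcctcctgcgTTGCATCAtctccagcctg
Gars1 chr6:55014945-55014974 (+): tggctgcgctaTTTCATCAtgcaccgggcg
Iars1 chr13:49835602-49835631 (+): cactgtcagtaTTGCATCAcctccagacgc
Tars1 chr15:11399741-11399770 (-): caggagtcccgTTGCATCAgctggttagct
Yars1 chr4:129083688-129083717 (+): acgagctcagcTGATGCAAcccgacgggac

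Positions are counted from the RefSeq start of each window, taken as 0. That start can differ from the end of the gene in the count table, whose coordinates are given with the genes further on, so a match before the RefSeq start may lie inside the gene as the table gives it, as for Asns, and one after it may lie outside, as for Trib3. Among the printed matches, that of Chac1 lay farthest from the RefSeq start, at bases -193 to -186. Of the other matches printed, those before the RefSeq start were of Pycr1 (-103 to -96), Gars1 (-30 to -23), Asns (-23 to -16) and Tars1 (-15 to -8). The match of Slc1a4 spanned that start, and those of Yars1, Iars1 and Trib3 lay within the first 21 bases after it. The full 250 bases upstream of the RefSeq start are shown for Asns, which encodes asparagine synthetase, and for Chac1, a glutathione-degrading enzyme, because both are widely used readouts of ATF4 and both had log2FC values below -1 at 48 h.
Asns chr6:7693210-7693459 (-): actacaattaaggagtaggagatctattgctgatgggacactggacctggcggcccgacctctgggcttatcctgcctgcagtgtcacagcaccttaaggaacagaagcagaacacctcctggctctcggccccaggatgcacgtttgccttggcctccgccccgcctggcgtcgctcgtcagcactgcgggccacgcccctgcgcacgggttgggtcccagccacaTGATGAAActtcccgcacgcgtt
Chac1 chr2:119181473-119181722 (+): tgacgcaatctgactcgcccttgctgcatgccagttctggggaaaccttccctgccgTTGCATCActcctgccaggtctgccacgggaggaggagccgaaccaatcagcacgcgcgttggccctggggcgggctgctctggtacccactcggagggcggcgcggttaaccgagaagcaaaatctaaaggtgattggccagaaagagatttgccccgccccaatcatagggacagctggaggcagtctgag

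The cAMP response element, searched as TGACGTCA, occurred in 1 of the 35 windows (2.86%), that of Ppp1r15a, against 1.79% of all windows. The letters of the motifs cannot occupy the same 8 bases. A match is a description of these letters and not a binding site, and binding was not measured.

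The contrast of 48 h and control asked how this response stood after the longer exposure to stimulated chondrocytes. Of the 40 genes, 34 were lower and 1 was higher at 48 h, while 5 did not pass the test. Over all 13812 genes tested, 24.4% were called lower and 22.0% higher. The median log2FC, on the log2 scale of the fit, was -0.62 over the 40 genes and -0.0022 over all genes tested. All 48 h libraries lay below all control libraries in 33 of the 40 genes, against 27.4% of all genes tested. Of the 40 genes, 5 had a log2FC below -1, and these were Phgdh, Chac1, Mthfd2, Slc7a5 and Asns. The share of all genes tested below that value was not determined.

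**Figure D1:**
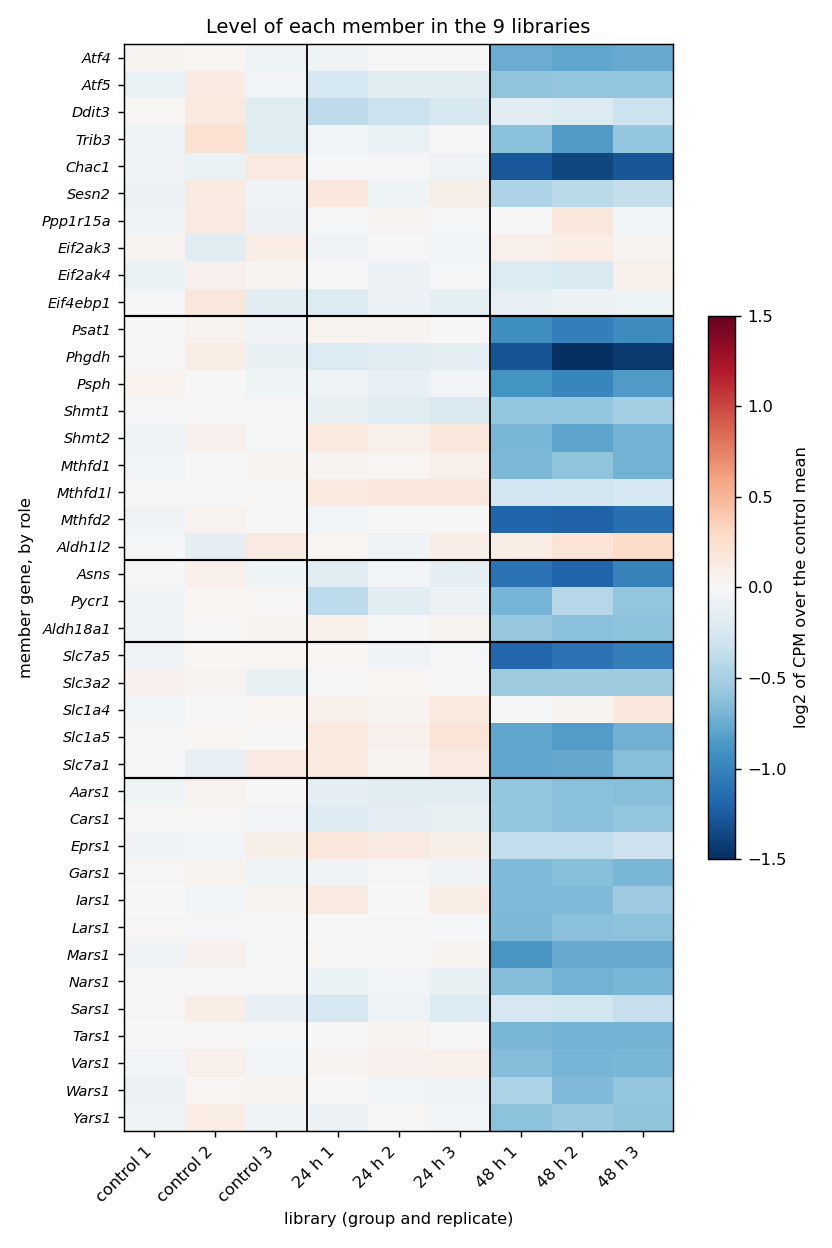
Level of the 40 genes (rows, by role) in the 9 libraries (columns), as log2 of CPM over the mean of the control libraries, with blue for lower and red for higher levels on a scale from -1.5 to 1.5. The 48 h columns are blue in the 34 genes called lower, palest in Ddit3, while the rows of Ppp1r15a, Eif2ak3, Eif2ak4, Eif4ebp1 and Slc1a4, which did not pass the test, are pale at 48 h, and that of Aldh1l2 is pale red.

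After the shorter co-culture the same genes stood near the control. At 24 h, 1 of the 40 genes was higher and 2 were lower, against 3.25% and 2.90% of all genes tested. The median log2FC was -0.02, and over all genes tested it was -0.0042. All 24 h libraries lay above all control libraries in 5 genes and below them in 8, against 10.3% and 11.2% of all genes tested. The 3 called genes were Ddit3, Aars1 and Mthfd1l, with log2FC values of -0.31, -0.15 and 0.16. Both counts moved with the libraries used. The test called 6 lower and 2 higher when control replicate 3 was omitted, while without 24 h replicate 1 it called none, and without control replicate 2 it called none lower.

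The direct comparison of 48 h with 24 h tested the difference between the times, without the control libraries as reference. It called 32 of the 40 genes lower and 1 higher at 48 h, against 25.4% and 23.7% of all genes tested. The median log2FC was -0.61 over the 40 genes and -0.0017 over all genes tested. In 32 genes all 48 h libraries lay below all 24 h libraries, against 30.3% of all genes tested. The comparisons share libraries, so their counts are not independent of each other.

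**Figure D2:**
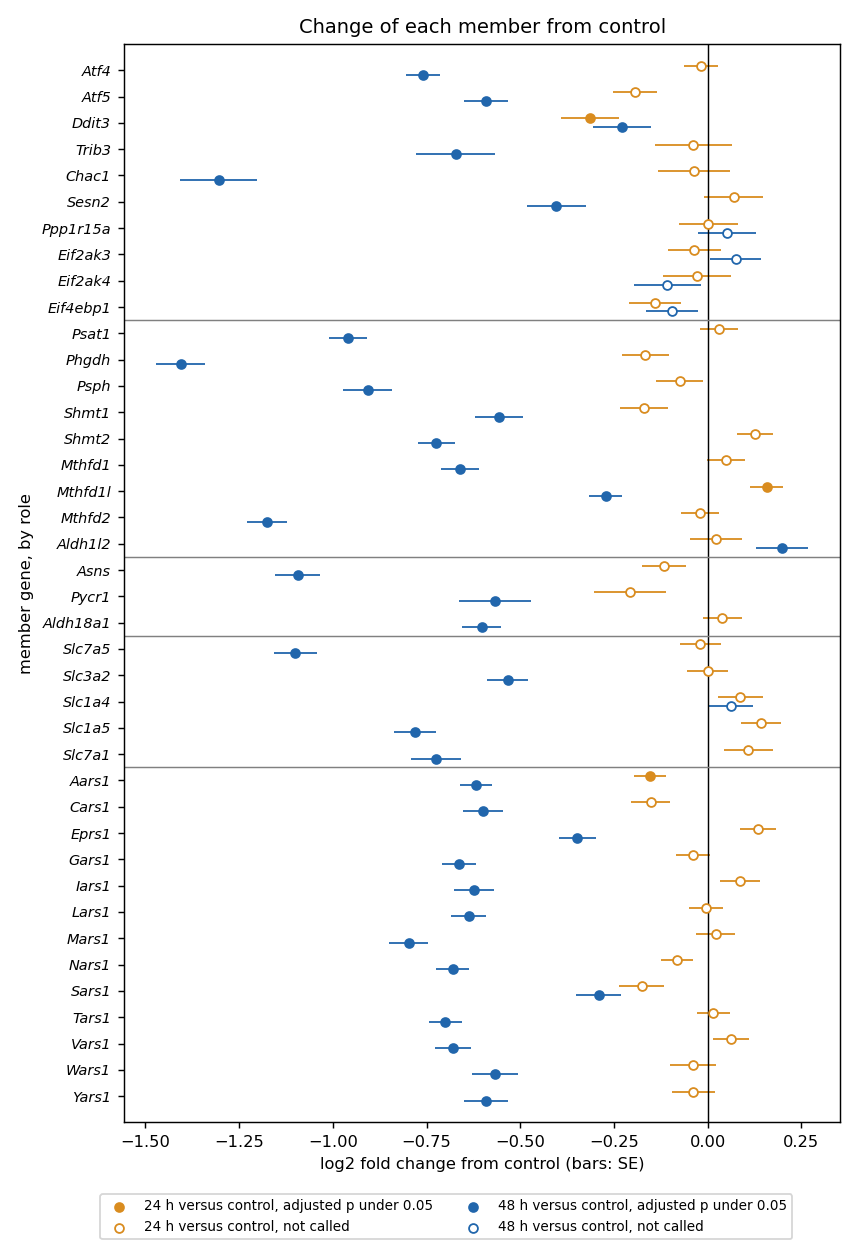
Log2FC from control of each of the 40 genes at 24 h (orange) and 48 h (blue), by role, with bars for the SE of the edgeR fit. Filled points have an adjusted p below 0.05, and the 24 h points lie between -0.31 and 0.16 while 29 of the 48 h points lie at or below -0.5.

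Among the regulators and effectors, 6 of 10 were lower at 48 h (60.0%, against 24.4% of all genes tested), none was higher and 4 did not pass. Their summed level was 936 to 1035 CPM in the control, 908 to 944 CPM at 24 h and 698 to 703 CPM at 48 h. It differed from the control by -28.7% at 48 h and by -5.16% at 24 h, with no test of sums. Atf4 (chromosome 15, 80139385 to 80141742), the central transcription factor, had 453, 450.1 and 417 CPM in control libraries 1 to 3, 422, 444 and 439 CPM in the 24 h libraries, and 264, 256 and 261 CPM in the 48 h libraries. The 3 libraries of 48 h lay together and well below the other 6, which overlapped. Atf4 fell by 40.9% at 48 h, a log2FC of -0.76 ± 0.05 (adjusted p = 2.68e-10). At 24 h its log2FC was -0.02 ± 0.05 (adjusted p = 0.898). Per length, Atf4 was the most abundant of the 40 genes in every group, at 187 RPKM (CPM per kilobase of gene length) in the control, 184 RPKM at 24 h and 110.3 RPKM at 48 h.

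Chac1 (chromosome 2, 119181710 to 119184862), whose product degrades glutathione, had 16.6, 16.0 and 18.8 CPM in control libraries 1 to 3, 16.9, 16.9 and 16.2 CPM in the 24 h libraries, and 7.08, 6.65 and 7.05 CPM in the 48 h libraries. No 48 h library reached the lowest of the other libraries, and Chac1 had the largest decrease of the regulators. Its log2FC was -1.30 ± 0.10 (adjusted p = 9.67e-09) after 48 h and -0.04 ± 0.10 (adjusted p = 0.894) after 24 h.

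Trib3 (chromosome 2, 152179342 to 152185952), a pseudokinase that restrains ATF4 and Akt signalling, had 22.7, 28.1 and 21.1 CPM in control libraries 1 to 3, 23.4, 22.4 and 24.1 CPM in the 24 h libraries, and 15.5, 13.4 and 16.0 CPM in the 48 h libraries. Its 48 h libraries lay below all others, and the control and 24 h libraries overlapped. The log2FC of Trib3 was -0.67 ± 0.11 (adjusted p = 4.01e-05) after 48 h. Atf5 (chromosome 7, 44461680 to 44466082), a factor related to ATF4 that is tied to the mitochondrial stress response, had 166, 193 and 173 CPM in control libraries 1 to 3, 148, 158 and 159 CPM in the 24 h libraries, and 116, 118 and 119 CPM in the 48 h libraries. Those of 24 h lay between the other groups without overlap. Atf5 had a log2FC of -0.59 ± 0.06 (adjusted p = 1.75e-07) after 48 h and -0.19 ± 0.06 (adjusted p = 0.0603) after 24 h, and -0.40 ± 0.06 (adjusted p = 1.82e-05) between the times. Atf5 overlaps Nup62 by 571 bases on the opposite strand, and Nup62 had a log2FC of -0.30 at 48 h.

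Ddit3 (chromosome 10, 127126643 to 127132157), which encodes the stress factor CHOP, took a different course. Ddit3 had 58.0, 63.7 and 50.7 CPM in control libraries 1 to 3, 43.9, 46.1 and 48.7 CPM in the 24 h libraries, and 51.0, 49.9 and 46.1 CPM in the 48 h libraries. All 24 h libraries lay below the control libraries, and the 48 h libraries overlapped the lowest control library. Ddit3 was called lower at both times, with -0.31 ± 0.08 (adjusted p = 0.0199) after 24 h and -0.23 ± 0.08 (adjusted p = 0.0204) after 48 h, and the times did not differ by the test, with 0.08 ± 0.08 (adjusted p = 0.39). The 24 h call was lost without control replicate 1 (adjusted p = 0.0741), control replicate 2 (0.0774), 24 h replicate 1 (0.124) or 24 h replicate 2 (0.0635). The 48 h call was lost without control replicate 1 (0.0713), control replicate 2 (0.124) or 48 h replicate 3 (0.111). Sesn2, a leucine-sensing inhibitor of mTORC1 signalling, fell by 24.4% at 48 h, a log2FC of -0.40 ± 0.08 (adjusted p = 0.000363).

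The 4 regulators that did not pass included both kinases of eIF2 in the list. Eif2ak3, which encodes PERK, was at 50.4 ± 5.06 CPM in the control and 53.2 ± 1.29 CPM at 48 h (SD, n = 3), with a log2FC of 0.07 ± 0.07 (adjusted p = 0.399). Eif2ak4, which encodes GCN2, had the lowest level per length of the 40 genes, at 3.35 RPKM in the control, and a log2FC of -0.11 ± 0.09 (adjusted p = 0.348). Ppp1r15a, the stress-induced subunit that directs dephosphorylation of eIF2, had 0.05 ± 0.08 (adjusted p = 0.613), and Eif4ebp1, a brake on cap-dependent translation, had -0.10 ± 0.07 (adjusted p = 0.275). In these 4 genes the 48 h libraries overlapped the control libraries.

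The serine and folate enzymes were lower at 48 h in 8 of 9 cases (88.9%, against 24.4% of all genes tested), and the remaining one was higher. Their summed level was 1561 to 1620.0 CPM in the control, 1607 to 1652 CPM at 24 h and 970.0 to 1001 CPM at 48 h. It differed from the control by -37.7% at 48 h and by 2.84% at 24 h. Phgdh (chromosome 3, 98220486 to 98247306), which carries out the first and committed step from glycolysis to serine, had 198, 214 and 183 CPM in control libraries 1 to 3, 172, 178 and 181 CPM in the 24 h libraries, and 81.1, 70.4 and 73.4 CPM in the 48 h libraries. The 48 h libraries formed a separate low group, and the 24 h libraries lay just below the control libraries. Phgdh fell by 62.2% at 48 h, a log2FC of -1.41 ± 0.07 (adjusted p = 8.20e-12), the largest decrease of the 40 genes. At 24 h it had -0.17 ± 0.06 (adjusted p = 0.14). A pseudogene of Phgdh, Phgdh-ps1, had 1 to 8 counts per library.

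Psat1 (chromosome 19, 15882042 to 15924701), the aminotransferase that follows Phgdh, had 204, 214 and 198 CPM in control libraries 1 to 3, 212, 212 and 205 CPM in the 24 h libraries, and 108, 101 and 107 CPM in the 48 h libraries. Its control and 24 h libraries overlapped and its 48 h libraries lay far below both. Psat1 had a log2FC of -0.96 ± 0.05 (adjusted p = 5.59e-11) after 48 h and 0.03 ± 0.05 (adjusted p = 0.816) after 24 h. Psph (chromosome 5, 129842622 to 129864513), the phosphatase that releases serine, had 57.6, 56.0 and 53.1 CPM in control libraries 1 to 3, 53.1, 51.3 and 54.0 CPM in the 24 h libraries, and 29.9, 28.1 and 30.9 CPM in the 48 h libraries. All 48 h libraries were lower than all other libraries, and Psph had a log2FC of -0.91 ± 0.06 (adjusted p = 2.37e-09). Psph overlaps Cct6a by 452 bases on the opposite strand, and Cct6a had a log2FC of -0.76 at 48 h, so the share of reads of each cannot be given.

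Mthfd2 (chromosome 6, 83282673 to 83302890), the mitochondrial dehydrogenase and cyclohydrolase of the folate pathway, had 152, 163 and 158 CPM in control libraries 1 to 3, 153, 157 and 157 CPM in the 24 h libraries, and 69.5, 68.0 and 72.2 CPM in the 48 h libraries. The 48 h libraries lay close together and below all others. Mthfd2 fell by 55.7% at 48 h, a log2FC of -1.18 ± 0.05 (adjusted p = 5.23e-12), and had -0.02 ± 0.05 (adjusted p = 0.891) after 24 h. Shmt2 (chromosome 10, 127352992 to 127358313), which splits serine into glycine and a folate-bound carbon unit in mitochondria, had 378, 412 and 390.1 CPM in control libraries 1 to 3, 436, 414 and 438 CPM in the 24 h libraries, and 245, 228 and 241 CPM in the 48 h libraries. All 24 h libraries were above the highest control library and all 48 h libraries were below the lowest. Its log2FC was -0.72 ± 0.05 (adjusted p = 1.17e-09) after 48 h, 0.13 ± 0.05 (adjusted p = 0.148) after 24 h and -0.85 ± 0.05 (adjusted p = 1.20e-10) between the times.

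Shmt2 overlaps Ndufa4l2, a hypoxia-responsive mitochondrial protein gene, by 32 bases on the opposite strand. Ndufa4l2 had 1.38, 1.39 and 0.828 CPM in control libraries 1 to 3, 3.34, 2.28 and 3.25 CPM in the 24 h libraries, and 21.5, 17.7 and 18.2 CPM in the 48 h libraries. It rose from 24 h to 48 h, and its log2FC from control was 3.98 ± 0.19 (adjusted p = 1.00e-11) after 48 h and 1.28 ± 0.25 (adjusted p = 0.00256) after 24 h. The level of Ndufa4l2 at 48 h was small beside that of Shmt2, at 19.2 ± 2.07 against 238 ± 9.16 CPM (SD, n = 3). Whether counting used the strand is not stated, so reads in the shared bases could have been given to either gene or to neither.

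Cytosolic enzymes of the folate cycle were lower too. Shmt1, the cytosolic counterpart of Shmt2, had a log2FC of -0.56 ± 0.06 (adjusted p = 9.87e-07) after 48 h, and Mthfd1, the trifunctional cytosolic enzyme, had -0.66 ± 0.05 (adjusted p = 6.06e-09). The 48 h libraries of both lay below all control and all 24 h libraries. Shmt1 overlaps Smcr8 by 184 bases on the opposite strand, and Smcr8 had a log2FC of 0.08 at 48 h. Mthfd1l, the mitochondrial formate-producing synthetase, was chosen for full values after they were seen, because it was called in opposite directions at the 2 times. It had 246, 238 and 245 CPM in control libraries 1 to 3, 270.1, 270.2 and 274 CPM in the 24 h libraries, and 199, 201 and 204 CPM in the 48 h libraries. The 24 h libraries lay above and the 48 h libraries below all control libraries, with log2FC values of 0.16 ± 0.04 (adjusted p = 0.0392) after 24 h and -0.27 ± 0.04 (adjusted p = 6.05e-05) after 48 h. Its 24 h call did not hold when any library but control replicate 3 was left out (adjusted p from 0.0627 to 0.133).

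Aldh1l2, the mitochondrial enzyme that oxidises formyl-folate to carbon dioxide, was the only one of the 40 genes called higher at 48 h and is given in full after its values were seen. It had 107, 98.8 and 119 CPM in control libraries 1 to 3, 110.3, 104 and 116 CPM in the 24 h libraries, and 117, 125 and 131 CPM in the 48 h libraries. The 48 h libraries overlapped the control libraries and lay above all 24 h libraries. Its log2FC was 0.20 ± 0.07 (adjusted p = 0.0243) against control and 0.18 ± 0.07 (adjusted p = 0.0397) against 24 h. The call against control was lost without control replicate 1 (adjusted p = 0.0595), control replicate 2 (0.0725), 48 h replicate 2 (0.0694) or 48 h replicate 3 (0.102). That against 24 h was lost without 24 h replicate 1 (0.0814), 24 h replicate 2 (0.147), 48 h replicate 2 (0.100) or 48 h replicate 3 (0.150). Aldh1l2 overlaps Nopchap1 by 1056 bases on the opposite strand, and Nopchap1 had a log2FC of -0.30 at 48 h. Per length, the ratio of Aldh1l2 to Mthfd2 was 0.281 to 0.350 in the control, 0.307 to 0.345 at 24 h and 0.780 to 0.856 at 48 h. The 48 h ratios lay above all others. The ratio of Shmt2 to Shmt1 per length was 10.5 to 11.1 in the control, 12.8 to 13.9 at 24 h and 9.28 to 10.0 at 48 h, so the mitochondrial form remained the more abundant one in every library.

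The 3 enzymes of asparagine and proline synthesis were all lower at 48 h, against 24.4% of all genes tested, and none was called at 24 h. Asns (chromosome 6, 7675169 to 7693254), which makes asparagine from aspartate and glutamine, had 188, 200.2 and 181 CPM in control libraries 1 to 3, 169.9, 184 and 171 CPM in the 24 h libraries, and 88.3, 83.2 and 94.9 CPM in the 48 h libraries. Every 48 h library was well below every other library, and the highest 24 h library overlapped the control libraries. Asns fell by 53.1% at 48 h, a log2FC of -1.09 ± 0.06 (adjusted p = 7.73e-11), and had -0.12 ± 0.06 (adjusted p = 0.304) after 24 h.

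Aldh18a1 (chromosome 19, 40538701 to 40576907), which makes the glutamate semialdehyde that leads to proline, had 136, 143 and 144 CPM in control libraries 1 to 3, 148, 140.2 and 146 CPM in the 24 h libraries, and 94.8, 91.2 and 92.3 CPM in the 48 h libraries. Those of 48 h were separate and the other groups overlapped. Aldh18a1 had a log2FC of -0.60 ± 0.05 (adjusted p = 2.81e-08) after 48 h. Pycr1 (chromosome 11, 120526538 to 120534595), the mitochondrial reductase of the last step to proline, had 22.8, 24.0 and 23.9 CPM in control libraries 1 to 3, 18.0, 21.0 and 22.2 CPM in the 24 h libraries, and 14.5, 17.6 and 15.6 CPM in the 48 h libraries. The groups of Pycr1 did not overlap, in the order control, 24 h and 48 h, although the 24 h difference of -0.21 ± 0.10 (adjusted p = 0.253) did not pass. Pycr1 had -0.57 ± 0.10 (adjusted p = 9.29e-05) after 48 h.

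**Figure D3:**
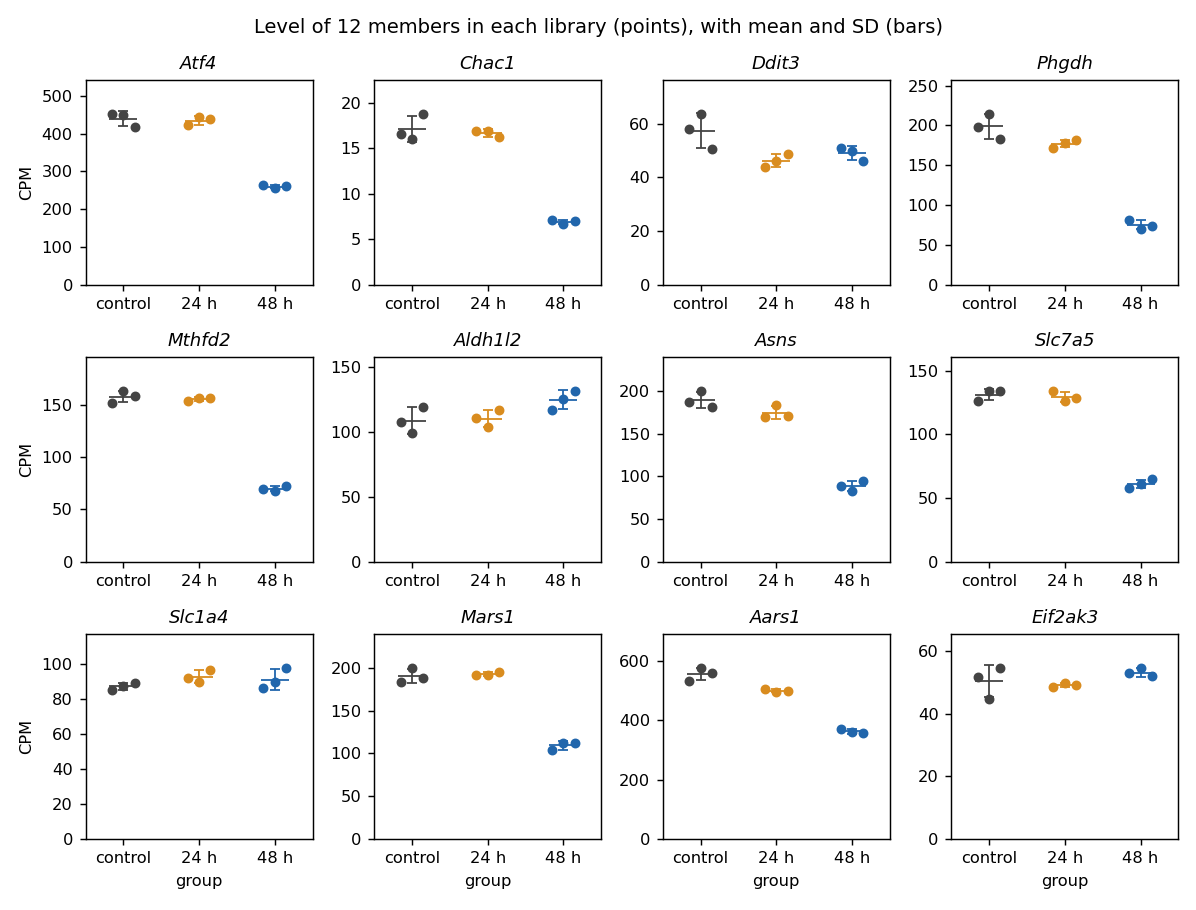
Level in CPM of 12 of the 40 genes in each library (points) of the control, 24 h and 48 h groups, with a line for the mean and bars for the SD (n = 3 libraries per group), every axis starting at 0. Atf4, Chac1, Phgdh, Mthfd2, Asns, Slc7a5, Mars1 and Aars1 lie lower at 48 h than in both other groups, whereas Slc1a4 and Eif2ak3 did not pass the test and the mean of Aldh1l2 lies higher at 48 h, with overlap of its control and 48 h libraries.

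Amino acid transporters were lower at 48 h in 4 of 5 cases (80.0%, against 24.4% of all genes tested). The summed level of the 5 was 619.8 to 628 CPM in the control, 634 to 659 CPM at 24 h and 396 to 426 CPM at 48 h, which differed from the control by -34.6%. Slc7a5 (chromosome 8, 122607889 to 122634433), the LAT1 carrier of leucine and other large neutral amino acids, had 126, 134 and 134 CPM in control libraries 1 to 3, 134, 126 and 128 CPM in the 24 h libraries, and 58.2, 60.9 and 64.7 CPM in the 48 h libraries. The control and 24 h libraries were interleaved, and the 48 h libraries lay below 65 CPM. Slc7a5 had a log2FC of -1.10 ± 0.06 (adjusted p = 3.82e-11) after 48 h and -0.02 ± 0.06 (adjusted p = 0.904) after 24 h.

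Slc3a2 (chromosome 19, 8684246 to 8700733), the heavy chain that pairs with LAT1, had 162, 159.7 and 144 CPM in control libraries 1 to 3, 152, 159 and 155 CPM in the 24 h libraries, and 107, 107 and 108 CPM in the 48 h libraries. Its 48 h libraries were almost identical to each other and lay below all others. Slc3a2 had a log2FC of -0.53 ± 0.05 (adjusted p = 2.62e-07) after 48 h, against -1.10 for Slc7a5. Per length, the ratio of Slc7a5 to Slc3a2 was 0.740 to 0.885 in the control, 0.756 to 0.839 at 24 h and 0.517 to 0.571 at 48 h.

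Slc1a5 (chromosome 7, 16515265 to 16532199), the ASCT2 carrier of glutamine and other neutral amino acids, had 121, 124 and 121 CPM in control libraries 1 to 3, 135, 128 and 139.8 CPM in the 24 h libraries, and 70.8, 68.0 and 73.9 CPM in the 48 h libraries. The 24 h libraries lay above and the 48 h libraries below all control libraries. Slc1a5 had a log2FC of -0.78 ± 0.06 (adjusted p = 2.18e-09) after 48 h, 0.14 ± 0.05 (adjusted p = 0.144) after 24 h and -0.92 ± 0.05 (adjusted p = 1.89e-10) between the times. Slc7a1 (chromosome 5, 148264220 to 148336714), the CAT1 carrier of arginine and lysine, had 125, 117 and 139.7 CPM in control libraries 1 to 3, 141, 131 and 139.5 CPM in the 24 h libraries, and 74.3, 75.0 and 81.8 CPM in the 48 h libraries. Again the 48 h libraries were the lowest, and the other groups overlapped. Slc7a1 had a log2FC of -0.72 ± 0.07 (adjusted p = 6.12e-08) after 48 h. Slc1a4, the ASCT1 carrier of serine and alanine, was at 87.2 ± 2.09 CPM in the control and 91.0 ± 5.95 CPM at 48 h (SD, n = 3), with a log2FC of 0.06 ± 0.06 (adjusted p = 0.412).

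Aminoacyl-tRNA synthetases charge each tRNA with its amino acid, and all 13 in the list were lower at 48 h, against 24.4% of all genes tested. In all 13, every 48 h library lay below every control library, against 27.4% of all genes tested. The log2FC values of the 13 lay between -0.80 and -0.29 with a median of -0.62, and the largest adjusted p was 0.000622 (Sars1). Their summed level was 3412 to 3533 CPM in the control, 3349 to 3409 CPM at 24 h and 2290.0 to 2313 CPM at 48 h. It differed from the control by -33.4% at 48 h and by -2.34% at 24 h. Against 24 h, 12 of the 13 were lower at 48 h (92.3%, beside 25.4% of all genes tested) and Sars1 did not pass. Sars1, which loads serine, had -0.29 ± 0.06 (adjusted p = 0.000622) against control and -0.11 ± 0.06 (adjusted p = 0.127) against 24 h.

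Mars1 (chromosome 10, 127132090 to 127147655), which loads methionine, had 183, 199.8 and 188 CPM in control libraries 1 to 3, 192, 192 and 196 CPM in the 24 h libraries, and 104, 112 and 112 CPM in the 48 h libraries. The 48 h libraries lay below all others, and Mars1 had the largest decrease of the synthetases, a log2FC of -0.80 ± 0.05 (adjusted p = 9.66e-10). Mars1 overlaps Ddit3 by 68 bases on the opposite strand. Vars1 (chromosome 17, 35219963 to 35235298), which loads valine, had 255, 277 and 256 CPM in control libraries 1 to 3, 271, 274 and 278 CPM in the 24 h libraries, and 167, 162 and 164 CPM in the 48 h libraries. Its 24 h libraries lay within the upper range of the control libraries or just above, and its 48 h libraries lay far below. Vars1 had a log2FC of -0.68 ± 0.05 (adjusted p = 2.23e-09) after 48 h.

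Tars1 (chromosome 15, 11382387 to 11399751), which loads threonine, had 268, 272 and 266 CPM in control libraries 1 to 3, 271, 276 and 268 CPM in the 24 h libraries, and 168, 164 and 164 CPM in the 48 h libraries. The 6 libraries of control and 24 h spanned 266 to 276 CPM, and the 48 h libraries lay near 165 CPM. Tars1 had a log2FC of -0.70 ± 0.04 (adjusted p = 5.54e-10). Iars1 (chromosome 13, 49835576 to 49887743), which loads isoleucine, had 208, 204 and 215 CPM in control libraries 1 to 3, 230.2, 209.8 and 226 CPM in the 24 h libraries, and 132, 132 and 143 CPM in the 48 h libraries. Control and 24 h libraries overlapped, and Iars1 had a log2FC of -0.62 ± 0.05 (adjusted p = 2.63e-08) after 48 h.

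Aars1, which loads alanine and held the highest synthetase level in CPM, was the one synthetase called at 24 h and is given in full for that reason, after its values were seen. It had 534, 576 and 559.5 CPM in control libraries 1 to 3, 505, 495 and 499 CPM in the 24 h libraries, and 371, 359 and 357 CPM in the 48 h libraries. The groups did not overlap, and the 24 h libraries lay between the others. Aars1 had log2FC values of -0.15 ± 0.04 (adjusted p = 0.0371) after 24 h, -0.62 ± 0.04 (adjusted p = 1.71e-09) after 48 h and -0.46 ± 0.04 (adjusted p = 6.17e-08) between the times. The 24 h call held only with all libraries or without control replicate 1 or 3 (adjusted p from 0.058 to 0.14 without each of the others).

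The other synthetases at 48 h had log2FC values of -0.68 for Nars1 (asparagine), -0.66 for Gars1 (glycine), -0.64 for Lars1 (leucine) and -0.60 for Cars1 (cysteine). Yars1 (tyrosine), Wars1 (tryptophan) and Eprs1 (glutamate and proline) had -0.59, -0.57 and -0.35. The SE of the 13 was between 0.04 and 0.06. Wars1 and Yars1 overlap Wdr25 and C77080 on the opposite strand by 544 and 30 bases, and C77080 had a log2FC of -0.0014.

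In all, 9 of the 40 genes overlap a gene on the opposite strand with at least 10 counts in every library. Of the other 31, 26 were lower at 48 h than in the control and none was higher, against 24.4% and 22.0% of all genes tested.

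The genes with and without the C/EBP-ATF element were then set side by side. Of the 10 genes with a match, 9 were lower at 48 h, with a median log2FC of -0.64 and a range from -1.30 to 0.06. Of the 21 genes with a window and no match, 18 were lower, with a median of -0.59 and a range from -1.41 to 0.07. Over all genes tested, 24.4% were lower. The ranges of the sets largely coincided. Slc1a4 held a match and did not pass the test, while Phgdh, Mthfd2 and Atf4 held none in these windows and were lower.

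Further genes of the pathway were taken from lists that hold no member of the 40 and were likewise chosen with earlier results of these data known. Of 26 other ATF4 pathway genes, 23 passed the filter, of which 13 were lower and 4 higher at 48 h, with a median log2FC of -0.22. These are 56.5% and 17.4% of the 23, against 24.4% lower and 22.0% higher over all genes tested. Gdf15, a secreted stress cytokine, went from 8.72 ± 2.41 to 2.75 ± 0.104 CPM (SD, n = 3), a log2FC of -1.66 ± 0.20 (adjusted p = 2.28e-06). Bcat1, the cytosolic aminotransferase of branched-chain amino acids, had -0.93 ± 0.06 (adjusted p = 1.13e-09), following 0.30 ± 0.06 (adjusted p = 0.00409) after 24 h. All 5 subunits of eIF2B, the exchange factor that phosphorylated eIF2 inhibits, were lower, and were grouped after their values were seen, with log2FC values from -0.69 (Eif2b3) to -0.33 (Eif2b4, which lies outside the naming rule).

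In this list 4 genes were higher at 48 h. Atf3, a stress-induced repressor, had 0.96 ± 0.18 (adjusted p = 0.000286), and Ddit4, an mTORC1 inhibitor known for its response to hypoxia and glucocorticoids, had 0.90 ± 0.06 (adjusted p = 5.64e-10). Vldlr, a lipoprotein receptor, had 0.86 ± 0.09 (adjusted p = 5.35e-07). The fourth, Nupr1, a chromatin-binding stress protein, had 0.41 (adjusted p = 3.20e-05), and 0.58 at 48 h versus 24 h. Ddit4 was already higher at 24 h, with 0.71 ± 0.06 (adjusted p = 2.23e-07).

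Of 10 other cytosolic synthetases and cofactors, 9 were lower at 48 h (90.0%, against 24.4% of all genes tested) and none was higher. Qars1, named after its values were seen, did not pass, and the median log2FC of the 10 was -0.47. Farsb, the beta subunit of the phenylalanine enzyme, had the largest decrease, with -0.70 ± 0.06 (adjusted p = 2.12e-08). Of 17 mitochondrial synthetases, 9 were lower (52.9%, against 24.4% of all genes tested), none was higher and 8 did not pass, with a median of -0.23. Yars2, the mitochondrial tyrosine enzyme, had the largest decrease of these, with -0.73 ± 0.09 (adjusted p = 3.28e-06).

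Of 20 other genes of the folate and methionine cycles, 9 were lower and 3 higher at 48 h, with a median log2FC of -0.16. Over all genes tested, 24.4% were lower and 22.0% higher. The share of the 20 called lower was thus above that of all genes tested, and the share called higher was below it. Gcsh, the carrier protein of the glycine cleavage system, had -0.73 ± 0.07 (adjusted p = 4.53e-08), and Slc19a1, the reduced folate carrier, had -0.67 ± 0.06 (adjusted p = 3.40e-08). Aldh1l1, the cytosolic counterpart of Aldh1l2, went the other way at 48 h. It had 52.5, 53.4 and 51.7 CPM in control libraries 1 to 3, 37.2, 41.2 and 38.7 CPM in the 24 h libraries, and 116, 116 and 109 CPM in the 48 h libraries. The 24 h libraries lay below and the 48 h libraries above all control libraries, with log2FC values of -0.43 ± 0.06 (adjusted p = 0.00017) and 1.11 ± 0.06 (adjusted p = 3.69e-11).

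Of 15 other amino acid transporters, 11 passed the filter, of which 3 were higher and 1 lower at 48 h, with a median of 0.23. These are 27.3% and 9.09% of the 11, against 22.0% higher and 24.4% lower over all genes tested. Slc7a2, the CAT2 carrier of arginine, rose from 28.1 ± 3.49 to 65.5 ± 0.903 CPM (SD, n = 3), a log2FC of 1.22 ± 0.09 (adjusted p = 5.13e-09), while its relative Slc7a1 was lower. Slc38a2, the SNAT2 carrier of small neutral amino acids, rose with 0.44 ± 0.05 (adjusted p = 8.25e-07). Slc7a11, the cystine carrier, fell with -0.83 ± 0.30 (adjusted p = 0.0301) on at most 56 counts per library, and Slc43a1, a leucine carrier, had 1.77 ± 0.42 (adjusted p = 0.00193) on at most 33.

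**Figure D4:**
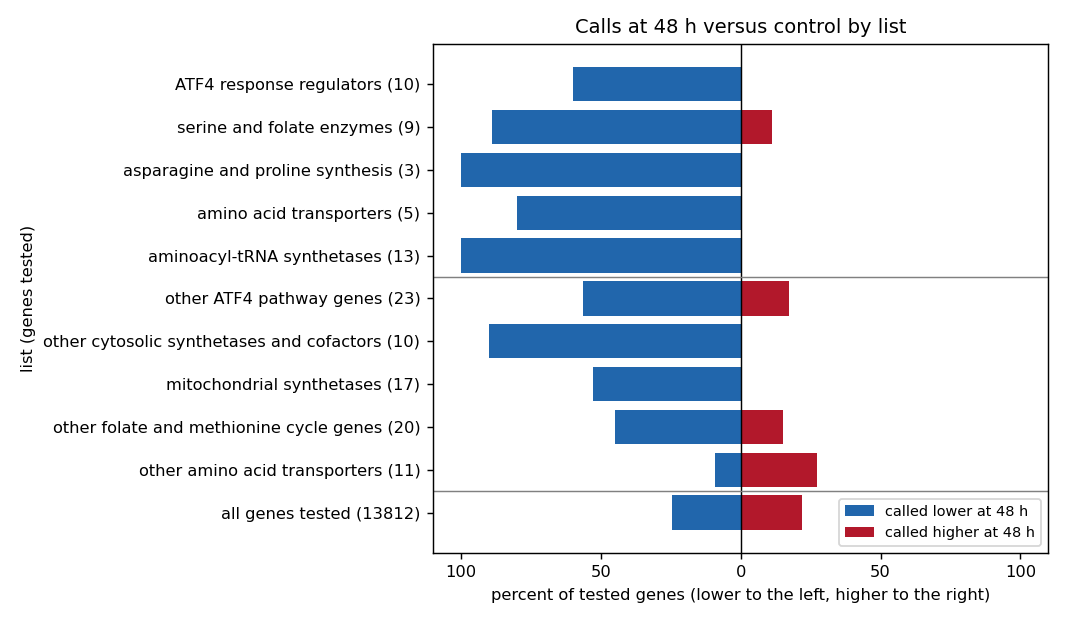
Percent of the tested genes of each list called lower (blue, to the left) or higher (red, to the right) at 48 h versus control, with the number of genes tested in parentheses. The upper block holds the 5 roles of the 40 genes, the middle block the further lists and the lowest bar all 13812 genes tested, of which 24.4% were lower and 22.0% higher.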

How the data were processed

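The labels of the samples gave groups and replicate numbers. A single table of raw counts was deposited by the authors. According to its methods and labels, directional paired-end libraries were trimmed, aligned with HISAT2 to GRCm39 (mm39) and counted with featureCounts, for which the processing notes give version 2.06 and other sources differ. The methods also name RSEM. The strand setting and the handling of reads with several matches are not given in the sources used here, so counts of overlapping genes are uncertain. The gene length in the deposited table served to express levels per length (RPKM). Coordinates of genes are those of the table.

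Counts were fitted with edgeR 4.0.16 in R 4.3.3. The filterByExpr function (minimum count 10) kept 13812 of 56748 genes, which held 99.88% of the reads. Scaling used TMM factors (trimmed mean of M values) from 0.9825 to 1.015. One quasi-likelihood model over the 9 libraries had group as its term and 6 residual degrees of freedom. Benjamini-Hochberg adjustment covered all genes tested, with a threshold of 0.05. SE values follow from the fold change on the log2 scale divided by the root of F. Total counts of 12250628 to 18515456 per library set the precision. The procedure was tested on simulated data before use. Alternatives were DESeq2 1.42.0, library size only, no filter, 2 groups only, an adjusted p under 0.01, a log2 fold change of at least 0.5, thinning to the smallest library, a replicate block and the omission of each library. The omission of members that overlap an expressed gene on the opposite strand was added after the values were seen.

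The 40 members and the further lists were chosen with earlier results of these data known. For Ddit3, which has 2 rows in the table, the row with reads was used. Every library value is given for Atf4, Ddit3, Asns and Shmt2 and, within each role, for up to 4 called members with the largest absolute log2 fold change in any comparison. From each further list, up to 3 genes called higher and 3 called lower, with the largest absolute log2 fold change in each comparison, may be named. Overlapping genes and cell type markers are named as such. Outside this rule, Eif2b4 and Qars1 were named after their values were seen, and full values of Mthfd1l, Aldh1l2 and Aars1 were given likewise. Full values of Aldh1l1, from a further list, and of the overlapping gene Ndufa4l2 were also given outside it. One gene named by this rule and the promoter sequence of one member are not reported here.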

Additional observations from a re-analysis of the deposited data

Results flagged for a closer look

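The change from control differed between 24 h and 48 h for 33 of the 40 genes, by the direct test of 48 h against 24 h (edgeR quasi-likelihood, Benjamini-Hochberg adjusted p below 0.05, n = 3 libraries per group). Over all genes tested, that test called 25.4% lower and 23.7% higher at 48 h. All values here are log2 fold changes of 48 h over 24 h. Among the regulators they were -0.74 for Atf4, -0.40 for Atf5, -0.63 for Trib3, -1.27 for Chac1 and -0.47 for Sesn2. Among the serine and folate enzymes they were -0.99 for Psat1, -1.24 for Phgdh, -0.83 for Psph, -0.39 for Shmt1 and -0.85 for Shmt2. Mthfd1 had -0.71, Mthfd1l had -0.43, Mthfd2 had -1.16 and Aldh1l2, the one gene that was higher at 48 h, had 0.18. The values were -0.98 for Asns, -0.36 for Pycr1 and -0.64 for Aldh18a1. The transporters Slc7a5, Slc3a2, Slc1a5 and Slc7a1 had -1.08, -0.53, -0.92 and -0.83.

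Of the synthetases, Aars1, Cars1 and Eprs1 had -0.46, -0.45 and -0.48, Gars1, Iars1 and Lars1 had -0.62, -0.71 and -0.63, and Mars1 and Nars1 had -0.82 and -0.60. Tars1, Vars1, Wars1 and Yars1 had -0.71, -0.74, -0.53 and -0.55. The cause of these differences was not tested, and the labels mark no control at matched times.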

How the results depend on the processing

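The counts of 34 members lower at 48 h than in the control and of 32 lower than at 24 h stayed within 1.5 times under every alternative run, from 26 to 35 and from 24 to 33. The other counts were small and moved. At 48 h versus control the count of members called higher went from 1 to 0 at an adjusted p under 0.01, with a log2 fold change of at least 0.5, and without members overlapping an expressed gene on the opposite strand, and was 0 to 1 with single libraries left out. At 48 h versus 24 h it went from 1 to 0 under the same 3 choices and when libraries were thinned to the smallest, and was 0 to 1 with single libraries left out. At 24 h versus control the count called higher went from 1 to 0 with library size only, with the 2 groups only, at an adjusted p under 0.01 and with a log2 fold change of at least 0.5, and was 0 to 2 with single libraries left out. The count called lower at 24 h went from 2 to 1 with no filter on low counts, with the 2 groups only and without overlapping members, to 0 at an adjusted p under 0.01 or a log2 fold change of at least 0.5, and was 0 to 6 with single libraries left out. With the replicate block it was 4, as Atf5 and Sars1 were added. Libraries with the same replicate number did not deviate together (correlations of -0.049 to 0.077), so the numbers were not taken to pair the samples, and no other count moved by over 1.5 times under the replicate block. The cause of these moves was not tested, except that fewer members or a stricter threshold can only lower a count.

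Changes of sign occurred only for changes that had not passed. At 24 h they were 0.0008 (DESeq2), 0.0099 (no filter) and 0.0059 (thinned) for Lars1. With library size only they were -0.0031 for Tars1, -0.0182 for Slc3a2 and -0.0163 for Ppp1r15a at 24 h, and 0.0149 for Slc1a4 at 48 h versus 24 h. Thinning gave -0.0017 for Ppp1r15a at 24 h. With single libraries left out, the log2 fold changes at 48 h versus control ran from -0.1585 to 0.0084 for Eif4ebp1 and -0.0144 to 0.1302 for Ppp1r15a. At 48 h versus 24 h they ran from -0.0748 to 0.0151 for Slc1a4 and -0.0162 to 0.0985 for Ppp1r15a. At 24 h versus control they ran from -0.0479 to 0.0069 for Atf4, -0.0156 to 0.0112 for Lars1, -0.0035 to 0.0594 for Mars1, -0.03 to 0.0727 for Ppp1r15a, -0.0436 to 0.0074 for Mthfd2, -0.0361 to 0.0991 for Aldh1l2, -0.0655 to 0.0231 for Yars1, -0.0785 to 0.0042 for Eif2ak4, -0.1119 to 0.0879 for Trib3, -0.046 to 0.0372 for Slc3a2, -0.0444 to 0.0032 for Slc7a5, -0.1073 to 0.0285 for Eif2ak3 and -0.0762 to 0.0399 for Chac1.

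Depth limits the low members most: Chac1 had 111 to 264 counts per library and Trib3 223 to 361. Replacing TMM by library size moved no mean level by more than 1.45%, although 11 of 120 group mean levels moved by over 1 SD of their libraries.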
